A study of Mus musculus with 18 samples.

Results

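The T cell receptor loci were examined in 4 region lists from mouse chromatin immunoprecipitation sequencing (ChIP-seq), and 43 of the 60531 listed regions lay in them. Members were all regions sharing at least 1 base with 3 mm9 windows: Trb on chromosome 6 from 40.84 to 41.52 Mb, Tra together with Trd on chromosome 14 from 53.00 to 54.87 Mb, and Trg on chromosome 13 from 19.26 to 19.46 Mb. Trb held 31 members, Tra and Trd 8, and Trg 4. The windows are fixed by position and not by any value in the lists, though they were chosen with earlier results of these data known. The study compared 2 groups of mouse cells, normal thymic cells carrying both CD4 and CD8 (double positive, DP) and T cell acute lymphoblastic leukaemia (T-ALL) in tumours overexpressing Notch1-IC, the active intracellular form of the Notch1 receptor. Of the 18 libraries, each cell type has 2 each for H3K27me3, H3K4me3, H3K9ac and input treated with micrococcal nuclease, and T-ALL has 1 for Notch1 and 1 sonicated input. No strain, age, mode of Notch1-IC expression or number of tumours is given in the labels. Nothing states that the 2 libraries of a group came from separate animals.

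T cell receptor genes are assembled in developing thymocytes by V(D)J recombination, in which the RAG enzymes cut and join 1 variable (V), in some chains 1 diversity (D), and 1 joining (J) segment upstream of a constant (C) region. The β chain from Trb is assembled first and the α chain from Tra in DP cells, while γ and δ chains from Trg and Trd form the receptor of a separate T cell lineage. Active V promoters, the J segments and the recombination centre at the D and J segments carry H3K4me3 and H3K9ac in thymocytes, and the RAG2 protein binds H3K4me3. H3K27me3 is the repressive mark of Polycomb repressive complex 2. Joining removes or inverts the DNA between the chosen segments, and a tumour grown from few cells can carry few rearrangements.

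The histone regions were deposited as a comparison of T-ALL with DP, and each is displayed in green or in red. The direction that a colour stands for is stated neither in the labels nor in the headers, so the colours are given as they are. The lists give neither fold changes, significance values nor values per library. The spread between replicates is therefore unknown, no test between the cell types could be made, and every count below is a description. Regions in a row may be pieces of 1 domain and are not replicates. The lists carry no input value, so a change in a mark and a change in DNA copies at a rearranged locus cannot be told apart. Nor can fewer cells with a mark be told apart from less of it per cell. The defining markers of DP or leukaemic cells could not be checked, since the lists hold no expression values. The H3K9ac list has regions on 11 chromosomes, among them 6 but neither 13 nor 14, so H3K9ac was not analysed here for Tra, Trd and Trg.

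Green H3K4me3 and green H3K9ac made up 38 of the 43 listed regions at the receptor loci, and H3K27me3 made up none. Among all 60531 listed regions, 10242 were green H3K4me3 and 952 green H3K9ac, while 9670 were green and 13012 red H3K27me3. Most of the 38 came from Trb, with 13 green H3K4me3 and 16 green H3K9ac regions. Of the 24 H3K4me3 regions in the 3 windows, 22 were green, or 91.7% (95% Clopper-Pearson interval 73 to 99, counting error only), against 47.9% of all listed H3K4me3 regions. The share was 13 of 13 in Trb (75.3 to 100) and 4 of 4 in Trg (39.8 to 100). In Tra and Trd it was 5 of 7, or 71.4% (29 to 96.3). The intervals of Trg and of Tra and Trd both hold the share of the whole list. Of the 18 H3K9ac regions in Trb, 16 were green, or 88.9% (65.3 to 98.6), against 50.7% of the whole list. The intervals take each region as separate and may be too narrow where neighbours are pieces of 1 domain. With regions of a colour within 1 kb merged, Trb had 5 green and 0 red H3K4me3 and 8 green and 2 red H3K9ac regions. Shares of merged regions were not set against the list, so the intervals do not serve as a test. The 2.75 Mb of the windows held 0 H3K27me3 regions of either colour, where the average density of that list would give 10.4 green and 13.9 red. They held 1 Notch1 peak, where the average would give 15.6. The 22 green H3K4me3 regions compare with 10.9 at the list average and the 2 red ones with 12. Listed regions are clumped, so such averages lie above typical counts. Stretches as long as Trb, Tra and Trd, and Trg had medians of 1, 4 and 0 Notch1 peaks and maxima of 77, 142 and 33. For green H3K4me3 the medians were 1, 5 and 0, and red H3K4me3 was not set against stretches.

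Each window lay in a long gap of the H3K27me3 list, and other stretches of the same length without a region were found. Cutting chromosomes 1 to 19 and X into stretches as long as the window, 40.0% of stretches of 680 kb held no H3K27me3 region, as Trb did. The share was 16.9% for stretches of 1870 kb, the length of the Tra and Trd window, and 67.7% for stretches of 200 kb, the length of Trg. The nearest H3K27me3 regions to Trb were a red one 447 kb before the window and a green one 751 kb after it, which leaves 1878 kb without one. Around Tra and Trd the gap was 2097 kb, from a green region 48 kb before the window to a red one 179 kb after it. Around Trg it was 668 kb, with a green region 218 kb before and a red one 251 kb after. Among the 22229 gaps between neighbouring H3K27me3 regions on the autosomes, ordered from the longest, these ranked 237 for Trb, 200 for Tra and Trd and 876 for Trg. An empty window always lies in a gap at least as long as itself, so the ranks are no separate measure of how unusual the windows are. How often stretches of all 3 lengths are empty together was not computed. A listed region marks a difference between the cell types, so its absence does not say whether H3K27me3 was present at equal levels.

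**Figure D1:**
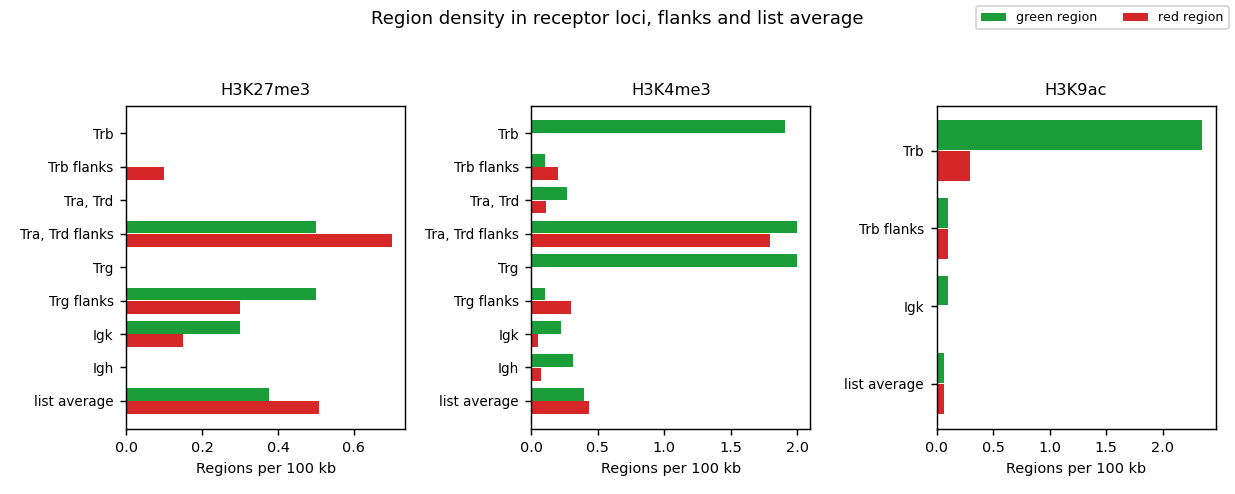
Regions per 100 kb (x axis) in each receptor window, in the 500 kb on either side of it, in the immunoglobulin kappa (Igk) and heavy chain (Igh) windows and over the whole list, with green and red bars for the display colours of the regions. Loci on chromosomes without H3K9ac regions are left out of that panel, and Trb stands at 1.91 green H3K4me3 and 2.35 green H3K9ac regions per 100 kb.

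Trb, the β chain locus, held 13 H3K4me3 regions, all green, and 16 green and 2 red H3K9ac regions. It held no Notch1 peak, as was the case for 34.4% of stretches of its length. Its 13 green H3K4me3 regions come to 1.91 per 100 kb, against 0.397 over the list, and 2.84% of stretches of 680 kb held as many. Its 16 green H3K9ac regions come to 2.35 per 100 kb, against 0.0651 over the list. None of the 2144 stretches of that length on the 11 chromosomes held as many (0%), the fullest having 12. Stretches were laid from the first listed region of each chromosome and so cut the Trb locus at other places. With regions of a colour within 1 kb merged, Trb had 5 green H3K4me3 and 8 green H3K9ac regions. The 1000 kb flanking the window held 1 green H3K4me3, 2 red H3K4me3, 1 green H3K9ac and 1 red H3K9ac region.

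Within Trb the regions fell into 2 of 4 parts. The parts were set at round distances from general knowledge of the order of segments. They are the first 160 kb, with Trbv1 and trypsinogen genes, 240 kb with the main variable array, 230 kb with further trypsinogen genes, and the last 50 kb with the D, J and C segments, the enhancer and Trbv31, a V segment lying downstream of the constant regions. The RefSeq table lists 35 V, 2 D, 14 J and 2 C entries for Trb. It is on another build (GRCm38.p6), so no region was assigned to a single segment. Both trypsinogen parts, which hold pancreatic digestive enzyme genes, had 0 regions of any list. For the first of them this depends on the boundary at 160 kb, as the nearest region begins at 165.5 kb. The variable array had 9 green H3K4me3 and 8 green H3K9ac regions, and the joining and constant end had 4 green H3K4me3, 8 green H3K9ac and both red H3K9ac regions.

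**Figure D2:**
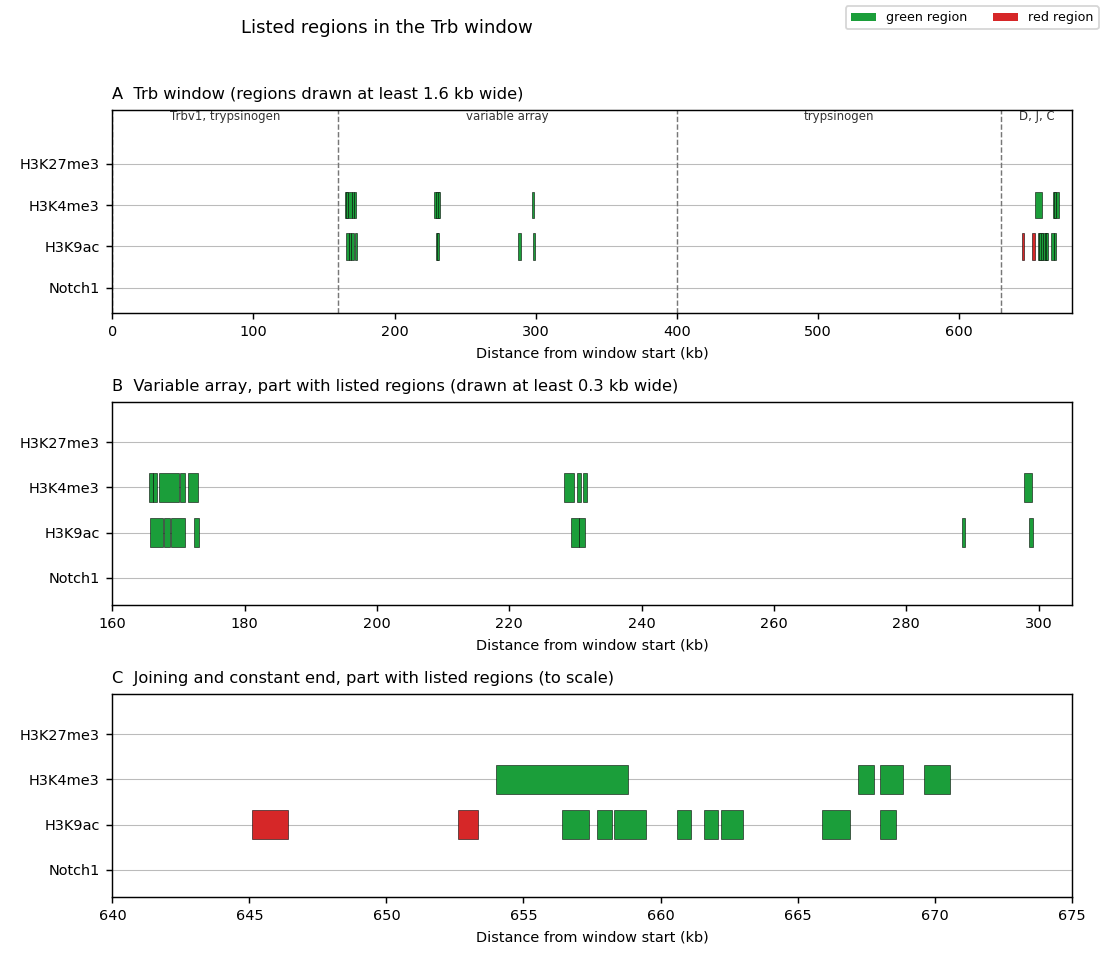
Position of each listed region in the Trb window, in kb from the window start (x axis), with 1 row per list and the 4 parts divided by dashed lines in panel A. The 17 regions of the variable array form 3 groups and a single region from 165.5 to 299.2 kb, and the 14 regions of the joining and constant end lie between 645.1 and 670.6 kb, with the 2 red H3K9ac regions first.

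Per length, the joining and constant end was the denser of these 2 parts. Green H3K4me3 reached 8 regions per 100 kb there and 3.75 in the variable array, a ratio of 2.13, and covered 144 against 44.1 bp per kb, a ratio of 3.27. Green H3K9ac reached 16 and 3.33 regions per 100 kb, a ratio of 4.8, and covered 122 and 36.4 bp per kb. Red H3K9ac reached 4 per 100 kb in the end and 0 in the variable array. No test was made of these ratios, which rest on counts of 4 to 9 regions a part.

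The first group of the variable array had the most regions, with 5 H3K4me3 and 4 H3K9ac regions, all green, between 41005476 and 41013125. Its H3K4me3 regions were separated by 25 to 500 bp. The broadest ran from 41007026 to 41010150 (3125 bp) and shared 2825 bp with 3 H3K9ac regions. The H3K9ac regions from 41005676 to 41007650 (1975 bp) and from 41008901 to 41010950 (2050 bp) were the broadest of that mark in the locus. The other H3K4me3 regions ran from 41005476 to 41006125, 41006176 to 41006700, 41010176 to 41010975 and 41011476 to 41012875, 525 to 1400 bp wide. The other H3K9ac regions ran from 41007776 to 41008725 and from 41012451 to 41013125, and all 9 regions met the other mark. Over the lists, 0.381% of green H3K4me3 regions were 3125 bp or wider, and 0.630% of green H3K9ac regions were 2050 bp or wider.

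The second group began 55.1 kb further on, with 3 H3K4me3 and 2 H3K9ac regions between 41068201 and 41071825. Its H3K4me3 regions ran from 41068201 to 41069825 (1625 bp), 41070201 to 41070850 (650 bp) and 41071226 to 41071825 (600 bp). Its H3K9ac regions ran from 41069351 to 41070550 (1200 bp) and from 41070576 to 41071350 (775 bp), and all 5 regions met the other mark. A lone H3K9ac region of 500 bp followed from 41128401 to 41128900 and met no other list. Another 8875 bp on, the third group paired an H3K4me3 region of 1200 bp (41137776 to 41138975) with an H3K9ac region of 600 bp (41138626 to 41139225), which shared 350 bp. Apart from the lone region, no list had a region between these 3 groups or for 345.9 kb after the last. The variable array, which holds most V segments of the locus, was thus listed at a few separate places.

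The joining and constant end changed colour within a short distance for H3K9ac. The 2 red H3K9ac regions came first, from 41485101 to 41486400 (1300 bp) and from 41492651 to 41493375 (725 bp). A green H3K4me3 region began 575 bp after the second, from 41493951 to 41498750. At 4800 bp it was the broadest member of all, and 0.137% of green H3K4me3 regions were as wide or wider. It shared 1975 bp with 3 green H3K9ac regions, the first of which began at 41496401. The first 2450 bp of this H3K4me3 region held no listed H3K9ac.

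Beyond that broad region, 4 green H3K9ac regions stood without H3K4me3, at 41500651 to 41501175, 41501601 to 41502100, 41502226 to 41503025 and 41505926 to 41506950, 500 to 1025 bp wide. They lie in the stretch after the broad region where H3K4me3 had a gap of 8450 bp. The end closed with H3K4me3 regions from 41507201 to 41507775, 41507976 to 41508825 and 41509576 to 41510550, the middle one sharing 550 bp with the last H3K9ac region (41507951 to 41508525). Of the 2 red H3K9ac regions, the second lay within 5 kb of a green one and the first did not. Over the list, 5.08% of red H3K9ac regions lay within 5 kb of a green one.

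The 12 green regions of the 2 active marks from 41493951 to 41510550 form 1 cluster when regions within 5 kb are joined. Among 608 such clusters holding both marks on the 11 chromosomes, 2 (0.329%) had 12 or more regions, this one included. The first group of the variable array, with 9 regions, ranked 5th, as 7 clusters had 9 or more.

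Green H3K4me3 and green H3K9ac were listed together at most places of the variable array. In the array 9 of 9 H3K4me3 regions met green H3K9ac, and 7 of 8 H3K9ac regions met green H3K4me3. In the joining and constant end these were 2 of 4 and 4 of 8. Over the 11 chromosomes 7.19% of green H3K4me3 regions met green H3K9ac, and 48.5% of green H3K9ac regions met green H3K4me3. These chromosomes have 6520 green H3K4me3 but 952 green H3K9ac regions, which keeps the first share low. The shares were not adjusted for this or for the high density of green H3K9ac in Trb. The bases shared made up 75.4% of green H3K9ac bases in the array and 41.4% in the end, against 36.4% over the list. The difference between the parts was not tested.

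**Figure D3:**
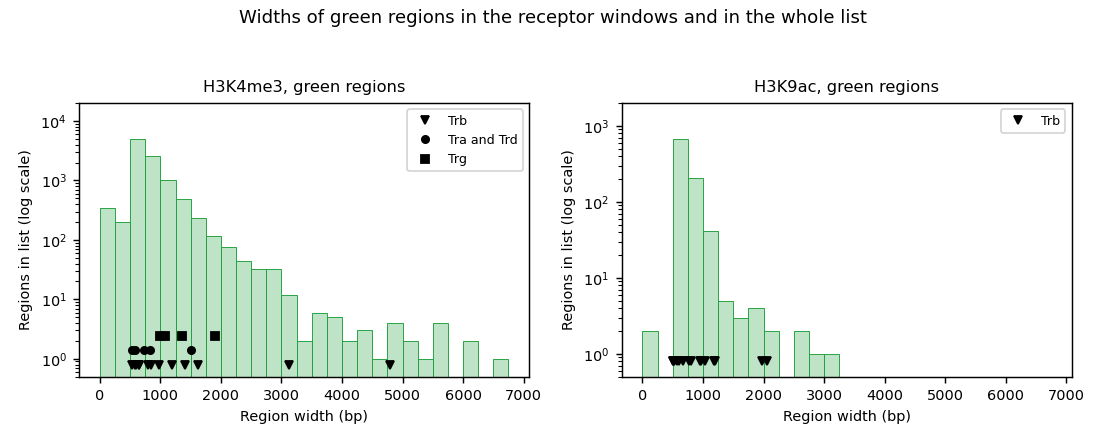
Widths of all green regions of the H3K4me3 and H3K9ac lists (bars, count on a log scale) with the members of each receptor locus marked by symbols at arbitrary heights. Most members sit among the common widths, and the Trb H3K4me3 regions of 3125 and 4800 bp lie in the sparse upper tail.

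Tra and Trd share 1 locus, with the Trd D, J and C segments lying between the V segments and the J segments of Tra, so that joining a Tra V segment to a Tra J segment removes Trd. The window held 5 green and 2 red H3K4me3 regions and 1 Notch1 peak. The RefSeq table lists 130 V, 60 J and 1 C entries for Tra and 6 V, 2 D, 2 J and 1 C for Trd. The 5 green regions come to 0.267 per 100 kb, below the list average of 0.397, and 53.4% of stretches of 1870 kb held as many. The 2 red ones come to 0.107 per 100 kb, against 0.435 over the list, and were not set against stretches.

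The green regions of Tra and Trd all lay in the last 140 kb, the joining and constant end, at 3.57 per 100 kb, against 0 in the 1730 kb of the variable part. The end was divided, again at round distances, into 40 kb with the Trd D, J and C segments, 65 kb with the J segments of Tra, and 35 kb with Trac, the constant region of the α chain, and what follows it. The Trd portion had 0 regions. The portion with the J segments of Tra had 4 green H3K4me3 regions. These ran from 54795276 to 54796000 (725 bp), 54801326 to 54801850 (525 bp), 54801926 to 54802750 (825 bp) and 54809726 to 54811225 (1500 bp). They span 15950 bp, and the middle pair is 75 bp apart.

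The portion with Trac held 1 region of each colour. The green H3K4me3 region ran from 54847501 to 54848075 (575 bp) and the red one from 54850626 to 54851150 (525 bp), 2550 bp downstream. Over the list 24.8% of red H3K4me3 regions lay within 5 kb of a green one, so such pairs are not rare. Both red regions of the locus were narrower than the median H3K4me3 region of 650 bp, as were 2 of the 5 green ones.

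**Figure D4:**
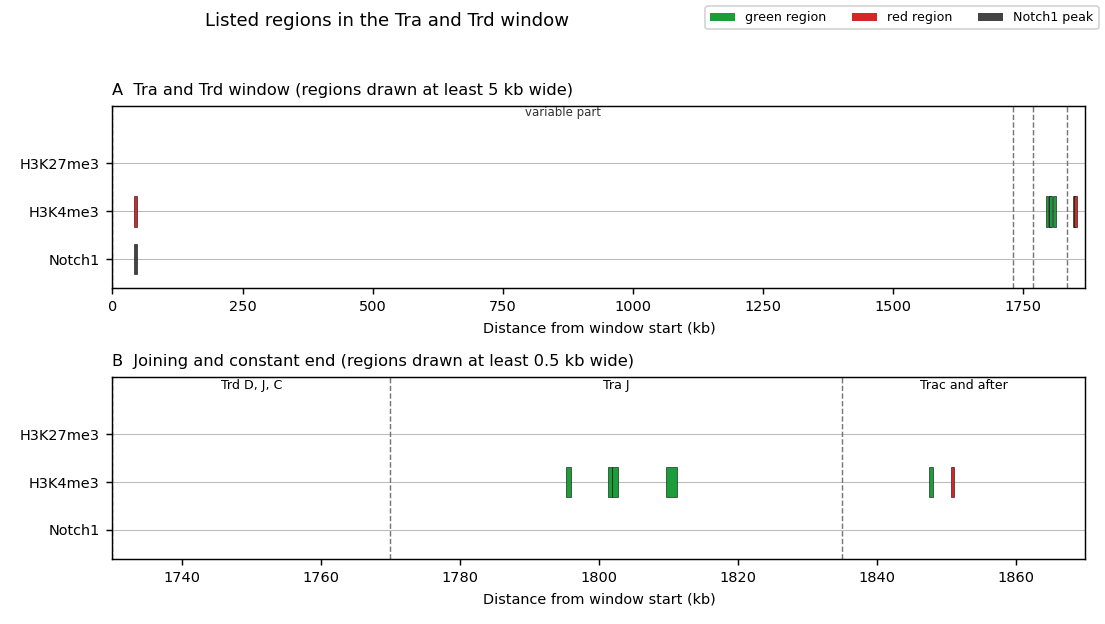
Position of each listed region in the Tra and Trd window, in kb from the window start (x axis), for H3K27me3, H3K4me3 and Notch1, with panel B enlarging the last 140 kb. All 5 green H3K4me3 regions sit between 1795.3 and 1848.1 kb, and the red H3K4me3 region near the window start sits at 44.0 kb inside the Notch1 peak, with nothing listed between 44.6 and 1795.3 kb.

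The only Notch1 peak of the receptor loci lay near the start of the Tra variable part. It ran from 53043901 to 53044600 (700 bp) and contained all 500 bp of the other red H3K4me3 region, from 53044001 to 53044500. Over the lists 17.2% of red H3K4me3 regions met a Notch1 peak and 13.3% of peaks met a red H3K4me3 region. No other region lay within the following 1750.8 kb. One peak in 1870 kb is at the low side of the list, as 25.5% of stretches of that length held 0 or 1, with a median of 4. Notch1 was measured in T-ALL only, in 1 library.

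The DNA around Tra and Trd was richer in listed regions than the window as a whole. The 500 kb on either side held 20 green and 18 red H3K4me3 regions, 5 green and 7 red H3K27me3 regions and 16 Notch1 peaks. Green H3K4me3 stood at 2 per 100 kb in the flanks and 0.267 in the whole window. The joining and constant end alone, at 3.57 per 100 kb, was denser than the flanks, and covered 29.6 against 13.3 bp per kb. For the whole windows of Trb and Trg the order was the opposite of that for Tra and Trd, with 0.1 per 100 kb in the flanks of each. The flanks are other genes, and the difference between loci was not tested.

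Trg, the γ chain locus, held 4 H3K4me3 regions, all green, and no Notch1 peak, as was the case for 61.8% of stretches of 200 kb. The locus repeats short units of V, J and C segments. The RefSeq table gives the order Trgv7, Trgv4, Trgv6, Trgv5, Trgj1, Trgc1, Trgv3, Trgj3, Trgc3, Trgc2, Trgj2, Trgv2, Trgv1, Trgj4, Trgc4, so it has no single joining and constant end and was described in 4 blocks of 50 kb. Its 4 green regions come to 2 per 100 kb, close to Trb, and 6.24% of stretches of 200 kb held as many.

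The regions of Trg lay in the outer blocks, and the inner blocks had 0. In the first block they ran from 19276251 to 19277600 (1350 bp) and from 19303576 to 19304650 (1075 bp), 26.0 kb apart. In the last block they ran from 19434026 to 19435025 (1000 bp) and from 19435676 to 19437575 (1900 bp), 650 bp apart. All 4 were wider than the median green H3K4me3 region of 700 bp. The stretch of 129.4 kb between these pairs had no region of any list. The flanking 1000 kb held 1 green and 3 red H3K4me3 regions.

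**Figure D5:**
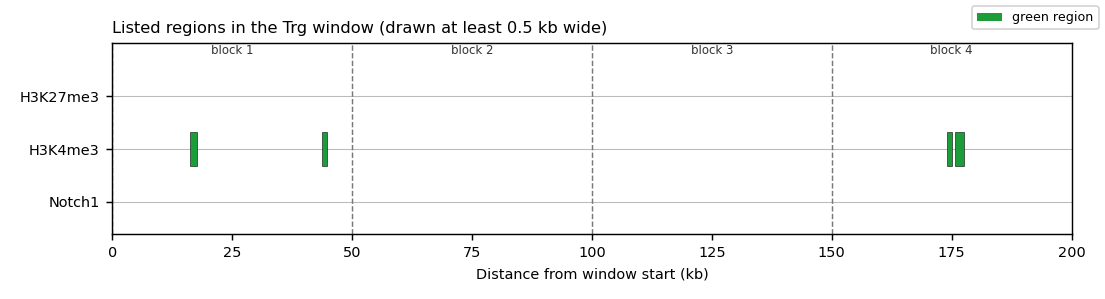
Position of each listed region in the Trg window, in kb from the window start (x axis), for H3K27me3, H3K4me3 and Notch1, with dashed lines between the 50 kb blocks. The 4 green H3K4me3 regions sit at 16.2, 43.6, 174.0 and 175.7 kb, and the rows of H3K27me3 and Notch1 are empty.

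The immunoglobulin loci, built of the same kinds of segments and assembled in B cells, were less dense in green regions than Trb and Trg. A 4.0 Mb window on chromosome 6 with the kappa chain locus (Igk) held 9 green and 2 red H3K4me3 regions (0.225 and 0.05 per 100 kb), 4 green H3K9ac regions, 12 green and 6 red H3K27me3 regions and 6 Notch1 peaks. A 2.9 Mb window on chromosome 12 with the heavy chain locus (Igh) held 9 green and 2 red H3K4me3 regions (0.31 and 0.069 per 100 kb), 0 H3K27me3 regions and 3 Notch1 peaks. Green thus outnumbered red H3K4me3 in these windows too, and the Igh density was close to the 0.267 of Tra and Trd. The windows were rounded and may hold neighbouring genes, and the differences were not tested.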

How the data were processed

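The authors deposited 4 BED lists without counts. Per the submitters' processing notes reads were aligned with BWA to NCBIM37 (mm9). The labels and headers do not state the caller, its thresholds, how inputs were used, how reads that match several places were handled or how replicates were joined. Reads were 34 bp after trimming, per the labels' protocols. Starts and widths are multiples of 25 bp, and the score column as deposited is constant at 1000 and was not used. Depth is unknown.

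Starts were converted to 1-based positions. Regions were counted in a window if they shared 1 bp, and in a part by their midpoint in the list of members. Python 3.11.15, numpy 2.4.6 and scipy 1.17.1 were used, and overlap counting was tested on simulated intervals. Average densities and stretches run from the first to the last listed region of chromosomes 1 to 19 and X (11 chromosomes for H3K9ac). No annotation or genome of the build of the lists was used, and no sequence is printed. Windows, parts and comparisons were chosen with earlier results of these data known. Stretches, clusters and the 5 kb distance were added after the members' values were seen. All regions of the joining and constant ends and all Notch1 peaks are named, elsewhere the 5 widest of each list and colour and those meeting another list.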

Additional observations from a re-analysis of the deposited data

How the results depend on the processing

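No paired analysis was possible because single libraries have no values in the lists, and no replicate could be left out. Of 64 alternatives on 26 values, 54 stayed within 1.5 times the value given or, for a share, within its interval. None changed the order of window and flanks. The 54 include every alternative for counts of 0, those of H3K27me3 in each window and of red H3K4me3 in Trb and Trg. Those alternatives only drop or join regions, so a count of 0 could not change and is no sign of stability. Moving the boundary of the joining and constant ends by 10 kb either way left every region on its side of it. The other boundaries were not moved. That at 160 kb in Trb lies close to the first group of the variable array, which begins at 165.5 kb, so the part given to this group depends on it. Counts depend on how domains are cut: merging regions within 1 kb left 5 green H3K4me3 and 8 green H3K9ac regions in Trb. At or above the median width of the list, Trb had 10 green H3K9ac regions, Tra and Trd 3 green and 0 red H3K4me3 regions, and the green share of H3K4me3 was 100%. Green H3K4me3 in Trb, 19.1 times as dense as its flanks by regions, was 47.5 times as dense by covered bases, and Trg 20 and 44.4 times. Against flanks of 1000 kb a side, green H3K9ac in Trb went from 23.5 to 47.1 times, and green H3K4me3 in Tra and Trd from 0.134 to 0.223 times. These flank ratios rest on 1 region in the flanks of Trb and of Trg. The lists hold only places that passed unknown thresholds, so equal and absent marks look alike.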
